A study of Mus musculus with 6 samples.

Results

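The kinase cascade that holds the mouse egg at metaphase II was described through 8 genes chosen by name: the activating kinase Mos, the Mek kinases Map2k1 and Map2k2, the Erk kinase Mapk3, the Raf kinase Braf, and the Rsk kinases Rps6ka1, Rps6ka2 and Rps6ka3. All 8 were among the 14165 genes listed for the oocyte pools and among the 54658 gene entries listed for the single oocytes. The pools were 4 libraries of 10 young mouse oocytes each. A control short interfering RNA had been given to 2 of them (siCtrl), and one against Plat, a secreted protease gene, to the other 2 (siPlat). The single oocytes were 59 from aged mice and 35 from young mice, with no treatment given, 1 library each, so that each age was 1 sample. All were metaphase II (MII) oocytes. Strain, age in weeks and number of animals were not given in the labels, so the spread between pools may be technical.

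In vertebrate eggs Mos phosphorylates and activates Mek, Mek activates Erk kinases such as Erk1, encoded by Mapk3, and Erk activates Rsk. This activity, long called cytostatic factor, keeps the egg arrested at MII until fertilisation. In frog eggs Rsk then acts on Emi2, encoded by Fbxo43, which blocks the anaphase-promoting complex, while in mouse eggs the arrest has been found not to need Rsk. Mouse eggs without Mos do not stay arrested and divide without a sperm. Raf kinases are the activators of Mek that growth factor receptors use in other cells. Mos protein is made during maturation from stored maternal RNA, whose poly(A) tail is lengthened as it is translated. The libraries were made from polyadenylated RNA, so a lower level can reflect fewer transcripts or shorter tails, which cannot be told apart here.

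By the GENCODE M21 annotation (GRCm38, the assembly that mm10 names), all 8 are protein-coding genes. Mos lies on the minus strand of chromosome 4 from 3870657 to 3872105, and its single annotated exon sequence of 1449 bases makes it the shortest of them. Rps6ka1 lies on the same chromosome from 133847290 to 133887797. Map2k1 is on chromosome 9 (64185770 to 64253631), Map2k2 on chromosome 10 (81105915 to 81133975), Mapk3 on chromosome 7 (126759601 to 126765819), Braf on chromosome 6 (39603237 to 39725463), Rps6ka2 on chromosome 17 (7170115 to 7303315) and Rps6ka3 on chromosome X (159210307 to 159368244).

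Because capture depended on the poly(A) tail, the 3′ ends of 4 members that behaved differently below are shown. Each line gives 30 bases of the last exon of the longest annotated transcript with a complete 3′ end, written 5′ to 3′, with the poly(A) signal AATAAA in capitals.
Mos, chr4:3870664-3870693, minus strand: ggcatatttttaggaAATAAAgttaccacg
Map2k1, chr9:64185776-64185805, minus strand: atactatcaagttaaAATAAAagggacaag
Braf, chr6:39603247-39603276, minus strand: tgcgaatactgctatAATAAAgattgactg
Rps6ka3, chrX:159368209-159368238, plus strand: aatggaaatttatatAATAAAgtttcaagt
AATAAA stood in the last 40 bases of these 4 transcripts and of those of Rps6ka1 and Rps6ka2, and of 57.4% of all 21831 transcripts chosen the same way. The cytoplasmic polyadenylation letters TTTTAT or TTTTAAT were searched on the transcript strand in the last 100 bases. They were found in Rps6ka2 alone among the 8, and in 16.6% of all 21831 transcripts. A match or its lack describes only these letters in this window.

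The pools held 12142884 to 17475952 gene counts and the single oocytes 2018226 to 11894782. Levels are given as CPM, counts per 1000000 gene counts, after TMM scaling in the pools. Plat, the targeted gene, had 441 and 439 CPM in the siCtrl pools against 51.4 and 39.0 CPM in the siPlat pools. The mitochondrially encoded share of counts exceeded 5% in 21 of 59 aged oocytes, where it ran from 6.78 to 61.6%. None of the 35 young oocytes exceeded it, a count of 0 that, read as up to 3 oocytes, allows up to 8.57% of them. In the other 38 aged oocytes it reached at most 2.97%. The 21 libraries stood apart, with 7385 to 13849 genes having a count against 14724 to 17623 in the 38. The summed level of 12 oocyte markers, among them zona pellucida genes and Gdf9, was 774 to 4203 CPM in the 21, 22189 to 34847 CPM in the 38 and 23537 to 34553 CPM in young oocytes. All 12 had counts in each of these sets. The results for aged oocytes are therefore given with and without the 21. The 15 cumulus and granulosa markers summed to at most 112 CPM in any oocyte. Of the 15, 10 had a count in the young, 11 in the 38 and 9 in the 21. Their median sum was 77.5 CPM in the young, 77.6 CPM in the 38 and 20.2 CPM in the 21. Foxl2, Amh and Fshr were at 0 in the young and in the 21, but each had a count in the 38. Ptx3 and Fst went the other way, with a count in the young and 0 in the 38. In the 21, blood and immune markers (8 of 12 with a count) summed to 0 to 194 CPM and stromal and endothelial ones (10 of 12) to 0 to 45.5 CPM. In the young these lists summed to 4.74 to 21.2 and 104 to 234 CPM, and in the 38 to 4.22 to 19.0 and 78.7 to 182 CPM. Of the 12 stromal and endothelial markers, 7 had a count in the young, 9 in the 38 and 10 in the 21. Averaged over the young and the 38, 2 of the 12 reached 5 CPM. The sum of the 12 was higher in the young and in the 38 than in the 21. In the pools, where 8 of these 12 were listed, it was 30.3 and 28.2 CPM in siCtrl and 23.5 and 21.4 CPM in siPlat.

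The first comparison asked whether depletion of Plat changed the RNA of the cascade, since the title of the study links Plat to the Erk pathway. Mos was the single tested member that passed. The siCtrl pools 1 and 2 had 682 and 913 CPM of Mos, and the siPlat pools 1 and 2 had 231 and 279 CPM. Both siPlat pools lay below both siCtrl pools, with a gap wider than the spread within either group. Its mean fell from 797 ± 164 CPM to 255 ± 34.2 CPM (SD, both n = 2). The fitted log2 fold change was -1.64 (SE 0.18, 95% interval -2.05 to -1.24), with an edgeR quasi-likelihood adjusted p of 0.00101. Of the 8 members 7 passed the filter on low counts and were tested, 1 fell, 0 rose and 6 did not pass, where 3.54% of all 11136 tested genes were called, 1.41% lower and 2.13% higher. A pool averages 10 oocytes, so a loss in every oocyte and a loss in some of them cannot be told apart.

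The Mos result kept its direction and its call in all 9 alternatives run, with log2 fold changes from -1.84 to -1.42 and adjusted p from 8.21e-15 to 0.00186. Of 12 oocyte markers 3 fell as well (Zp1, Gdf9 and the linker histone gene H1f8), with log2 fold changes of -1.31, -0.84 and -0.65. Over all 11136 tested genes 1.41% were called lower. The median log2 fold change of the 12 was -0.49 (range -1.45 to 0.43), against -0.03 for all tested genes. Of the 12, 9 had an unadjusted edgeR p under 0.05, in either direction, against 2096 of the 11136. The summed level of the 12 was 28055 and 30866 CPM in siCtrl and 27935 and 26475 CPM in siPlat. All 3 calls ended without siCtrl 2, with log2 fold changes of -0.86, -0.79 and -0.59. Those of Gdf9 and H1f8 also ended without siCtrl 1 (-0.88 and -0.70), and that of Zp1 without siPlat 1 or siPlat 2 (-1.54 and -1.10). The edgeR, DESeq2 and limma adjusted p over the 9 alternatives ran from 4.44e-05 to 0.249 for Zp1, 1.02e-05 to 0.108 for Gdf9 and 0.000447 to 0.295 for H1f8. The part of these markers in the Mos result was not tested.

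**Figure D1:**
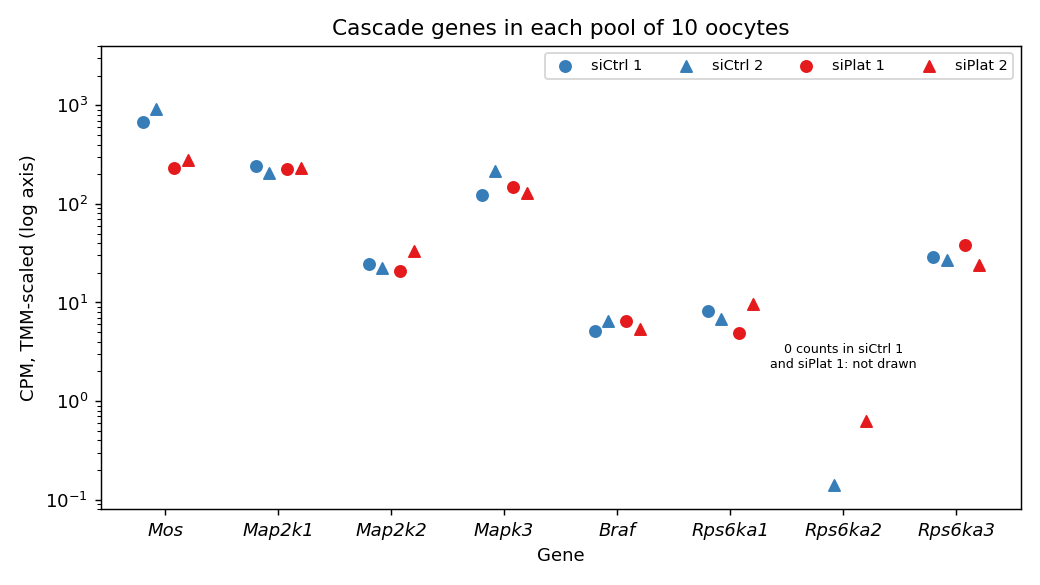
Level of each cascade gene in each pool (y axis, CPM after TMM scaling, log axis; circles and triangles are replicates 1 and 2, blue siCtrl, red siPlat). Mos is the gene whose siPlat pools, at 231 and 279 CPM, stand well below its siCtrl pools at 682 and 913 CPM; the 2 values of 0 for Rps6ka2 are not drawn.

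The kinases that Mos acts on did not pass the test. Map2k1, which encodes Mek1, had 242 and 206 CPM in the siCtrl pools and 225 and 231 CPM in the siPlat pools, so that both siPlat values lay between the siCtrl values (log2 fold change 0.03, 95% interval -0.33 to 0.38, edgeR adjusted p = 0.962). Its interval leaves out a fall of the size seen for Mos. Map2k2, which encodes Mek2, had 24.7 and 22.5 CPM in the siCtrl pools and 20.9 and 33.4 CPM in the siPlat pools, the latter on either side of the former (0.20, interval -0.37 to 0.77, adjusted p = 0.747).

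Mapk3, which encodes Erk1, varied more between the siCtrl pools than between the groups. It had 122 and 217 CPM in the siCtrl pools and 149.6 and 128 CPM in the siPlat pools (log2 fold change -0.29, interval -0.84 to 0.26, edgeR adjusted p = 0.596). Without siCtrl 2 the value was 0.19, so its direction rested on that pool.

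Braf, the Raf kinase best known from mutation in melanoma, had 5.10 and 6.50 CPM in the siCtrl pools and 6.46 and 5.34 CPM in the siPlat pools, and the groups overlapped (log2 fold change 0.03, interval -0.76 to 0.82, edgeR adjusted p = 0.984). These levels rest on 68 to 92 counts a library, and the interval holds changes of either sign. Araf, another Raf gene, had 6.94 and 8.69 CPM in the siCtrl pools against 6.72 and 4.56 CPM in the siPlat pools and did not pass (-0.47, adjusted p = 0.531).

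The Rsk genes encode the kinases that Erk activates last in the chain. Rps6ka1 had 8.18 and 6.78 CPM in the siCtrl pools and 4.91 and 9.74 CPM in the siPlat pools (log2 fold change -0.03, interval -0.87 to 0.81, edgeR adjusted p = 0.984). Rps6ka3 had 29.1 and 26.7 CPM in the siCtrl pools and 38.3 and 23.9 CPM in the siPlat pools (0.15, interval -0.40 to 0.70, adjusted p = 0.812). In both genes the siPlat pools lay on either side of the siCtrl pools. Rps6ka2 had 0 and 2 counts in siCtrl and 0 and 8 counts in siPlat, too few to be tested.

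**Figure D2:**
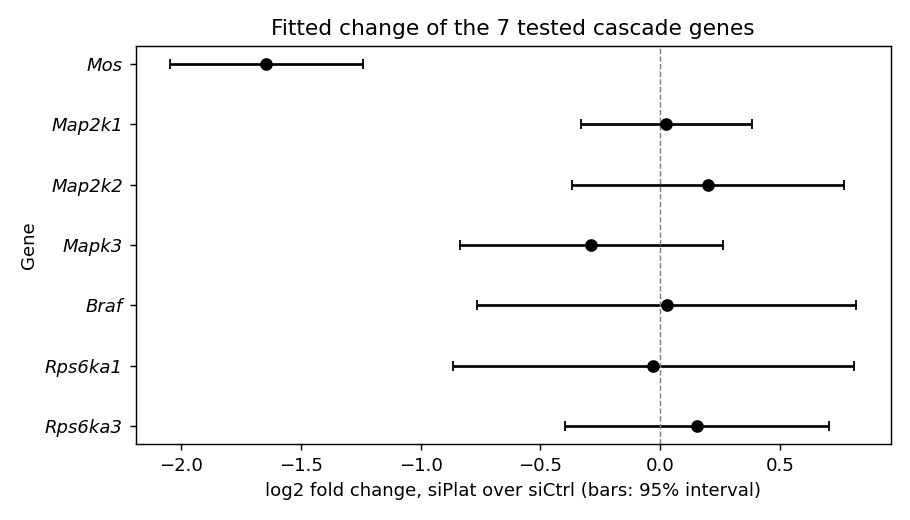
Fitted log2 fold change of siPlat over siCtrl for the 7 tested members (points) with the 95% interval (bars); the dashed line marks no change. The interval of Mos runs from -2.05 to -1.24 and those of the other 6 include 0.

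The rest of the pathway was read from 5 lists of genes. Over all 11136 tested genes 1.41% were called lower and 2.13% higher. The median log2 fold change of 26 tested other components of the Erk cascade was -0.04, against -0.03 for all tested genes. Lamtor3, the scaffold that holds Mek1 and Erk1 on late endosomes, had the highest level per length of that list, with 247 and 234 CPM in the siCtrl pools and 233 and 226 CPM in the siPlat pools.

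Among 25 tested substrates and effectors of MII arrest, Fbxo43 was the single call. It fell from 128 ± 2.77 to 77.8 ± 0.588 CPM (SD, n = 2 per group, log2 fold change -0.72, edgeR adjusted p = 0.0415), and 24 did not pass (list median -0.09). Fbxo43 encodes Emi2, named above as the frog target of Rsk. The most abundant per length were Ccnb1, the cyclin of maturation-promoting factor, with 3448 and 2854 CPM in the siCtrl pools and 3101 and 2888 CPM in the siPlat pools, and Cdk2ap2, whose product Doc1r is an Erk substrate in mouse oocytes, at 609 and 630.2 against 551 and 588 CPM. Neither passed.

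In the list on control of Mos mRNA translation, 1 of 25 tested genes rose, 2 fell and 22 did not pass, with a median of -0.04. Dazl, an RNA-binding activator of translation, rose from 1759 ± 158 to 3329 ± 334 CPM (SD, n = 2 per group, log2 fold change 0.92, edgeR adjusted p = 0.00799). Pabpn1l, a poly(A)-binding protein gene of oocytes, was called lower (-0.87, adjusted p = 0.0239), as was Zar1l, a zinc finger gene of maternal RNA storage (-1.12, adjusted p = 0.0277). Btg4, which recruits the deadenylase that removes maternal RNA, had 9044 and 8977 CPM in the siCtrl pools and 9285 and 9291 CPM in the siPlat pools.

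Of 16 tested feedback and transcriptional targets of Erk, Dusp1, a phosphatase that switches off MAP kinases, fell from 66.1 ± 7.14 to 37.7 ± 0.0256 CPM (SD, n = 2 per group, log2 fold change -0.81, edgeR adjusted p = 0.0426), and 15 did not pass. The most abundant of that list per length, Dusp7 (-0.23) and Spry4 (-0.31), did not pass. In a list of other MAP kinase branches, Jnk and p38 with some genes of the Erk5 and atypical Erk branches, 0 of 21 tested genes were called by edgeR, with 1 at an unadjusted p under 0.05 and a list median of -0.30. Map2k4, the Jnk-activating kinase gene at the highest level per length there, had 206 and 194 CPM in the siCtrl pools and 100.2 and 207 CPM in the siPlat pools, and Mapk6, the atypical kinase Erk3, had 181 and 155 against 99.5 and 157 CPM.

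Each list call named above ended when 1 siCtrl pool was left out, which that of Mos did not, while calls over all genes went from 394 to 157 without siCtrl 1 and 160 without siCtrl 2. Without siCtrl 1 and without siCtrl 2 the log2 fold changes were -0.70 and -0.74 for Fbxo43, -0.91 and -0.70 for Dusp1, -0.86 and -0.88 for Pabpn1l, 0.83 and 1.02 for Dazl, and -1.36 and -0.84 for Zar1l. Without siCtrl 1 or without siCtrl 2 the edgeR adjusted p reached 0.261 for Fbxo43, 0.315 for Dusp1 and 0.132 for Pabpn1l, against lowest values over the 9 alternatives of 0.00445, 0.00964 and 0.000175. The call of Dazl ended without siCtrl 1 (0.117, lowest 1.19e-06) and that of Zar1l without siCtrl 2 (0.216, lowest 0.000403).

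Levels of different genes were compared per kilobase of annotated exon. In siCtrl the order ran from Mos (470.4 and 630.02 CPM per kb) over Map2k1 (71.3 and 60.7) and Mapk3 (54.0 and 96.2) to Map2k2 (4.37 and 3.97), Rps6ka3 (3.50 and 3.21), Rps6ka1 (1.92 and 1.59), Braf (0.368 and 0.469) and Rps6ka2 (0 and 0.0142). The 2 pools of Map2k1 and of Mapk3 overlapped, so their order could not be told, while the other neighbours did not overlap. In siPlat Mos was still first, at 159 and 193 CPM per kb, above Map2k1 at 66.4 and 68.02. Exon length sums all annotated isoforms, which understates genes that use a short one.

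The shares of the Mek genes and of the Rsk members were also compared per length. Map2k1 made up 94.2 and 93.9% of the Mek level per length in siCtrl and 94.7 and 92.03% in siPlat. Among the Rsk members Rps6ka3 held 64.6 and 66.6% in siCtrl, but 36.0% in young single oocytes, where Rps6ka1 held 63.8%. Pools and single oocytes were separate libraries in separate tables, and this difference was not tested. Rps6ka6, another Rsk gene, is not a member and was left out of these shares. It had 53.4 and 44.5 CPM in the siCtrl pools over 5.013 kb of exon. Rps6ka3 had 29.1 and 26.7 CPM there over 8.322 kb. The shares are thus of the Rsk members, not of all Rsk genes.

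**Figure D3:**
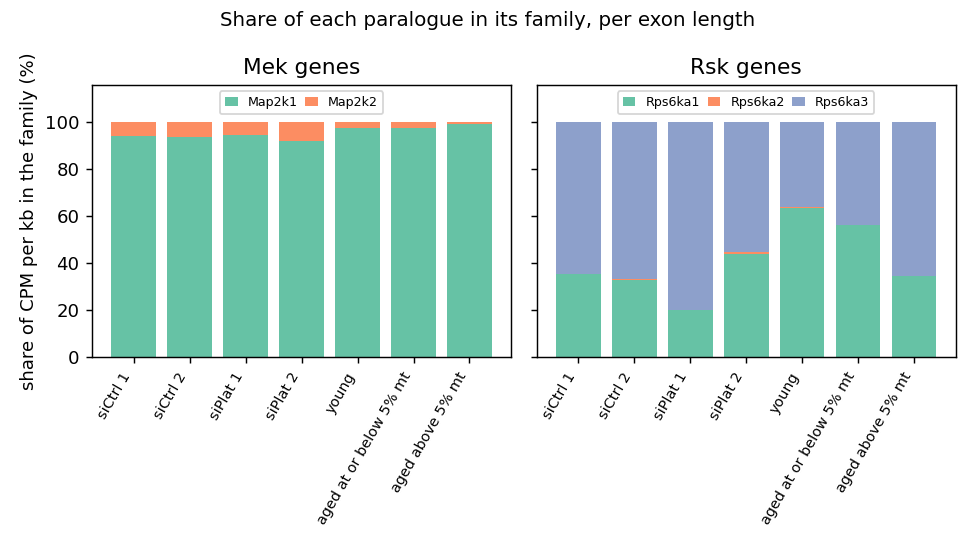
Share of each gene in the summed CPM per kb of the genes drawn with it (y axis, percent). The Mek genes are Map2k1 and Map2k2, and the Rsk genes are Rps6ka1, Rps6ka2 and Rps6ka3, without Rps6ka6. Bars are the 4 pools and the summed young, aged at or below 5% and aged above 5% mitochondrial share oocytes. Map2k1 fills at least 92.03% of every Mek bar, while the Rsk bars shift, Rps6ka3 standing at 36.0% in young oocytes and 65.4% in aged oocytes above 5%.

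The second comparison asked how the cascade differed between aged and young single oocytes. With 1 sample per age there was no test. Intervals are exact Poisson intervals at 95% on the summed counts and cover counting error only, and oocytes are not replicates of an age. With all oocytes, Mos was at 763 CPM (760 to 765) in aged and 1169 CPM (1165 to 1173) in young oocytes, a log2 ratio of -0.62. Without the 21 oocytes above 5% it was at 1041 CPM (1037 to 1045), a log2 ratio of -0.17. The level of Mos in the 21 is given further on.

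Of 7 members averaging 5 CPM or more over both ages, 1 was at least 1.5-fold higher and 2 at least 1.5-fold lower with all oocytes, where 9.45% of 8303 genes were higher and 9.38% lower by that size, 18.8% in all. Without the 21 oocytes, 1 was higher and 0 lower, against 8.87% and 1.87% of 8413 genes, 10.7% in all. The median log2 ratio of the members was -0.05 with all oocytes and 0.06 without the 21, against -0.07 and 0.08 for all genes. The members past that size were not the same in both settings, Mos, Map2k2 and Rps6ka3 in the first and Mapk3 in the second.

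Mos varied little among oocytes of either age once the 21 were set aside. In young oocytes it ran from 872 to 1583 CPM (median 1150.0) and in the 38 aged oocytes from 708 to 1487 CPM (median 1033). The ranges overlapped over most of their length, though 32 of the 38 lay below the young median. The coefficient of variation over oocytes was 0.121 in the young and 0.159 in the 38.

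The Mek genes had the same direction. Map2k1 ran from 582 to 899 CPM in young oocytes (median 732) and from 358 to 865 CPM in the 38 (median 638), with 29 of the 38 below the young median and a log2 ratio of -0.18. Map2k2 ran from 11.4 to 58.03 CPM in young oocytes (median 29.6) and from 6.40 to 50.7 CPM in the 38 (median 26.7), with a log2 ratio of -0.23. With all oocytes the log2 ratios were -0.43 and -0.62.

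Mapk3 went the other way and was the most variable of the abundant members. It ran from 20.6 to 210.3 CPM in young oocytes (median 45.9) and from 27.4 to 325 CPM in the 38 (median 88.2), and 30 of the 38 lay above the young median. The log2 ratio was 0.70 without the 21 and 0.33 with all oocytes, and with TMM factors and without the 21 it was 0.56, below the 1.5-fold line. The coefficient of variation of Mapk3 was 0.729 in young oocytes and 0.695 in the 38.

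Braf, Rps6ka1 and Rps6ka3 stayed under 1.5-fold between the ages once the 21 were set aside. Braf was at 9.35 CPM (9.01 to 9.70) in young oocytes and at 11.6 CPM (11.1 to 11.97) in the 38, a log2 ratio of 0.28. Rps6ka1 was at 15.6 and 16.3 CPM (0.06). Rps6ka3 ran from 9.84 to 34.2 CPM in young oocytes (median 15.6) and from 11.7 to 42.02 CPM in the 38 (median 22.7), and 35 of the 38 lay above the young median. Its log2 ratio was 0.50 without the 21 and 0.76 with all oocytes. Rps6ka2, the Rsk gene with almost no reads, had a count in 11 of 35 young oocytes (31.4%, exact binomial interval 16.9 to 49.3%) and in 14 of the 38 (36.8%, 21.8 to 54.01%). Thinned to 2000000 counts each, 5 of 35 and 7 of 38 had one.

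Araf was at 9.86 CPM in young oocytes, 15.6 CPM in the 38 and 14.03 CPM in all aged oocytes (log2 ratios 0.62 and 0.47). Among the pathway genes past 1.5-fold in both settings were Bub1, a checkpoint kinase that Rsk phosphorylates in frog eggs, at 31.7 CPM in young oocytes and 72.9 CPM in the 38, the phosphatase gene Cdc25b (12.6 and 19.8 CPM), the phosphatase inhibitor gene Ensa (13.5 and 22.5 CPM), the polyadenylation scaffold gene Sympk (12.4 and 24.96 CPM), the RNA storage gene Ybx2 (12.8 and 24.1 CPM) and the Jnk gene Mapk8 (94.4 and 145 CPM).

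Counted by list without the 21, 2 of 24 other cascade components were higher by 1.5-fold and 2 lower, and 5 of 25 effectors of MII arrest, 3 of 24 genes of Mos mRNA control, 2 of 12 genes of the other MAP kinase branches and 0 of 8 feedback targets were higher, with 0 lower in these 4 lists. The list medians were 0.05, 0.03, 0.10, 0.29 and 0.21. Over all genes 8.87% were higher and 1.87% lower, with a median of 0.08. With all oocytes the counts higher and lower were 1 and 3, 4 and 3, 3 and 2, 5 and 0, and 0 and 0 in the same order. Over all genes 9.45% were then higher and 9.38% lower.

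**Figure D4:**
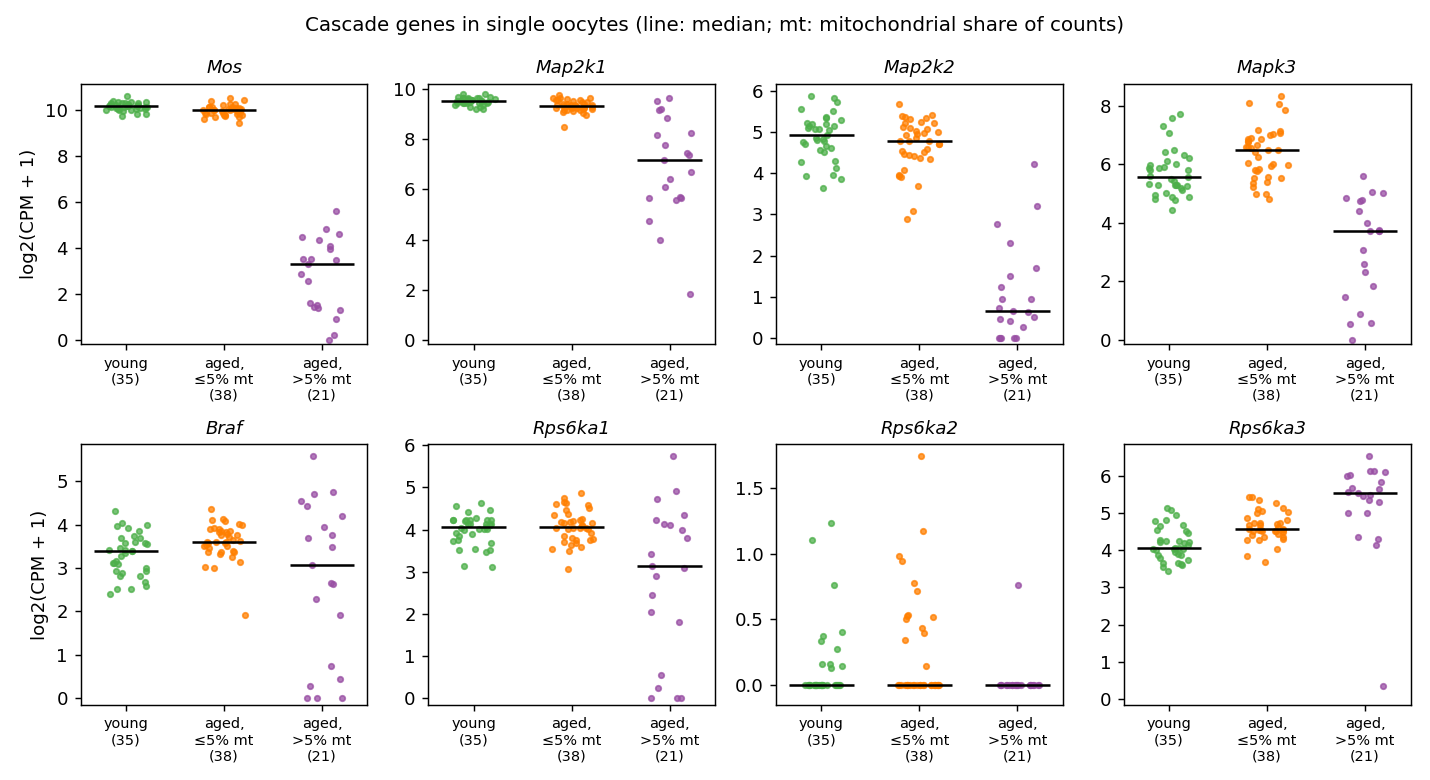
Level of each member in each single oocyte (y axis, log2 of CPM plus 1; every point is 1 oocyte, the line is the median) in 35 young oocytes, 38 aged oocytes at or below 5% and 21 aged oocytes above 5% mitochondrial share (mt). The Mos points of the 21 oocytes, at most 48.0 CPM, all lie below the lowest of the 38 at 708 CPM, while most Rps6ka3 points of the 21 lie above the median of the 38.

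The aged sample was also described on both sides of a mitochondrial share of 5%. Both sides are cells of 1 sample, so this is a description of these oocytes with no test. Mos was at 10.5 CPM (9.90 to 11.2) in the 21 oocytes above 5% and at 1041 CPM in the 38 below it, a 98.8-fold ratio. It ran from 0 to 48.0 CPM in the 21 (median 8.92), and each of the 21 lay below the lowest of the 38. Of 8087 genes compared, 7 had a lower log2 ratio than Mos (-6.50). The pseudocount of 1 CPM bounds this ratio for genes of low level in the 38, so the rank also reflects the level of Mos. In this split 4 of 7 members were at least 1.5-fold lower and 1 higher, where 58.5% of all genes were lower and 14.8% higher, 73.3% in all. Members and other genes entered if the mean of both sides was at least 5 CPM. Map2k2, at 2.12 CPM in the 21 and 26.8 CPM in the 38, entered only through the 38. Its count as lower followed from that rule. The median log2 ratio was -1.33 for the members and -0.94 for all genes. A lower level in the 21 was thus the more common direction among all genes.

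The size of the difference divided the cascade. Map2k2 was at 2.12 CPM in the 21 and 26.8 CPM in the 38 (log2 ratio -3.16), and Mapk3 at 15.4 and 107 CPM (-2.72). For Mapk3, 17 of the 21 lay below the lowest of the 38. Map2k1 was at 260.2 and 656 CPM (-1.33), and ran from 2.55 to 792 CPM in the 21, so that 5 of them lay within the range of the 38.

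Braf and Rps6ka1 were within 1.5-fold on both sides in their summed levels. Braf was at 11.4 CPM (10.7 to 12.1) in the 21 and 11.6 CPM in the 38 (log2 ratio -0.02), but ran from 0 to 46.4 CPM in the 21 against 2.76 to 19.4 CPM. Rps6ka1 was at 11.7 and 16.3 CPM (-0.44), and ran from 0 to 52.2 CPM in the 21. The medians over oocytes were lower in the 21 for both genes. They were 7.39 against 11.2 CPM for Braf and 7.75 against 15.7 CPM for Rps6ka1. Rps6ka3 was the member that was higher, at 43.4 CPM (42.1 to 44.8) against 24.7 CPM (0.79), with 13 of the 21 above the highest of the 38. With the mitochondrial genes left out of the total, Rps6ka3 was at 61.98 and 25.2 CPM and Mos at 15.04 and 1059 CPM, so both directions held.

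The oocytes next to the 5% line showed Mos low while Map2k1 was not. The 2 aged oocytes with the highest shares below the line, 2.73 and 2.97%, had Mos at 1065 and 909.5 CPM and Map2k1 at 575 and 664 CPM. The 2 with the lowest shares above it, 6.78 and 6.80%, had Mos at 1.95 and 2.08 CPM and Map2k1 at 728 and 792 CPM. The next, at 11.5%, had them at 6.48 and 579 CPM. No aged oocyte had a share between 2.97 and 6.78%. Within the 21, Spearman's rho with the mitochondrial share was -0.86 for Map2k1 and 0.31 for Mos, as a description over cells of 1 sample that share the total count.

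**Figure D5:**
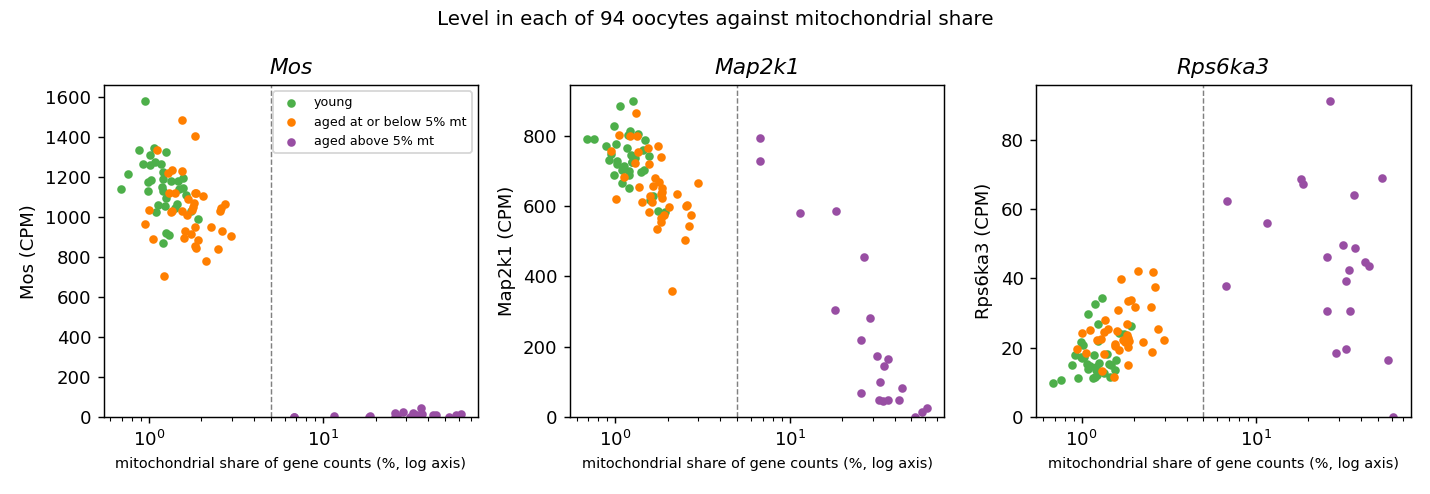
Level of Mos, Map2k1 and Rps6ka3 in each of 94 oocytes (y axis, CPM) against the mitochondrial share of gene counts (x axis, percent, log axis; the dashed line is 5%). Mos drops to at most 48.0 CPM in every oocyte above the line, Map2k1 is at 728 and 792 CPM in the 2 oocytes just above it and lower at higher shares, and Rps6ka3 stays between 0.273 and 91.2 CPM above the line.

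Other genes of the pathway also split, where 58.5% of all 8087 genes were lower in the 21 and 14.8% higher. Among 24 other cascade components 4 were at least 1.5-fold higher in the 21 and 10 lower, with Lamtor3 at 2.87 and 398 CPM (log2 ratio -6.69), the Raf inhibitor gene Pebp1 at 14.4 and 146 CPM (-3.25), the GTPase gene Nras at 532 and 91.7 CPM (2.52) and the phosphatase gene Ptpn11 at 629 and 149.7 CPM (2.06). Of 14 genes of the other MAP kinase branches, 8 were higher and 2 lower, with a median log2 ratio of 1.01, and Map2k4 was at 1403 and 496 CPM, Mapk8 at 407 and 145 CPM and Mapk6 at 827 and 322 CPM. Among 26 effectors of MII arrest 2 were higher and 16 lower. Plk1, the kinase that in frog eggs marks Emi2 for destruction, was at 6.34 and 222 CPM and Cdc20, the activator of the anaphase-promoting complex, at 17.8 and 309.9 CPM, whereas Fbxo43 was at 296 and 329.6 CPM and Ccnb1 at 2656 and 2606 CPM.

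Of 24 genes of Mos mRNA control, 3 were higher in the 21 and 15 lower, against 14.8% and 58.5% of all genes. Cpeb1, the factor that binds cytoplasmic polyadenylation elements, was at 76.3 and 433 CPM and Zar1 at 15.02 and 1295 CPM, against Pum2 at 665 and 196 CPM and Dazl at 1387 and 1292 CPM. All 12 oocyte markers were at least 1.5-fold lower in the 21, and depth was lower too, at a median of 4315505 gene counts against 7075728. Their part in the level of Mos was not tested. Lamtor3, at a lower ratio than Mos in this split, was named above with all 4 pools between 226 and 247 CPM. The 12 oocyte markers had a median log2 fold change of -0.49 in the pools, where Mos was lower in siPlat. Whether this split and the siPlat comparison are related was not tested.

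Genes whose level was most like that of Mos from oocyte to oocyte were sought among 7868 genes, by the lower of its Spearman correlations over the 35 young and over the 38 aged oocytes. The 5 closest were Fdx1 (0.66 and 0.67), a mitochondrial ferredoxin gene, Izumo1r (0.71 and 0.58), the egg receptor for sperm, Slc7a6os (0.64 and 0.58), Bpgm (0.58 and 0.71) and H3f3a (0.60 and 0.58). These are descriptions over cells of 1 sample per age that share their total count, and no test was made. In the pools, where 3.54% of all 11136 tested genes were called, none of the 5 was. Their log2 fold changes ran from -0.44 for Fdx1 to 0.25 for H3f3a. H3f3a stood at 165 CPM in young single oocytes and at a mean of 2327 CPM in siCtrl. Within the cascade Mos was closest to Map2k2 in young oocytes (0.49), with 0.22 in the 38.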

How the data were processed

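Both tables, of 4 pools and of 94 single oocytes, hold raw read counts by gene as deposited, in whole numbers. Libraries were made by Smart-seq2 with 16 cycles of cDNA amplification, per the labels' protocols, which name no molecular identifiers, so PCR copies are counted. STAR 2.7.10b, HTSeq 0.13.5 and mm10 are named per the submitters' processing notes, without roles. Annotation and strand setting are not given in the sources used here. Reads of overlapping or antisense genes cannot be told apart, and close paralogues may share reads.

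Pools were tested over all genes with edgeR 4.0.16 (robust quasi-likelihood, TMM factors, minimum count 10 and minimum total 15) in R 4.3.3, no covariate, Benjamini-Hochberg adjusted, called at 0.05. The standard error is the absolute log2 fold change over the square root of F. The script was tested on simulated data. The p-values measure the spread between these pools only. Single-oocyte counts were summed per set without the 92 ERCC spike-in entries. Log2 ratios used a pseudocount of 1 CPM. Alternatives were DESeq2 1.42.0, limma-voom (limma 3.58.1), other scaling, no filter, left-out libraries and a replicate block, and for the oocytes other totals, summaries and cut-offs.

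Members, lists and tests were chosen with earlier results of these data known. Named were the members and Araf, and of each list the genes called in the pools, those past 1.5-fold between the ages with all oocytes and without those above 5%, and the 2 at the highest level per length in siCtrl, plus the 5 genes most like Mos. Some genes that this rule names are not reported here. Gene names in the 5% split beyond these were chosen after their values were seen, as were the lines of 3′ sequence. H1f8 is listed as H1foo in the single-oocyte table. 1 column without a name held no values.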

Additional observations from a re-analysis of the deposited data

How the results depend on the processing

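In the pools, 394 genes were called, against 657 by DESeq2 and 157 to 1145 when 1 library was left out (157 and 160 without siCtrl 1 and 2, 713 and 1145 without siPlat 1 and 2). With the replicate number as a block 273 genes were called and Mos stayed called (log2 fold change -1.64, adjusted p = 0.000389), and Fbxo43 (0.0872) and Dusp1 (0.0768) did not pass. The labels do not say that numbers pair the pools, and same-numbered deviations had a correlation of -0.06 across genes. Mos was the 1 member called in all 9 alternatives. The 6 tested members that did not pass took both signs when 1 library was left out, from -0.0852 to 0.149 for Map2k1, -0.167 to 0.495 for Map2k2, -0.643 to 0.187 for Mapk3, -0.137 to 0.211 for Braf, -0.595 to 0.375 for Rps6ka1 and -0.23 to 0.467 for Rps6ka3, none of them called. Between the ages 3 members were past 1.5-fold with all oocytes. It was 1 without the oocytes above 5% (Mapk3), 1 with a cut at 10% (Mapk3), 1 over nuclear counts (Rps6ka3), 1 with the median over oocytes (Rps6ka3), 0 without those above 5% and with TMM factors, and 7 with ERCC scaling, all lower. ERCC scaling moved the median of all genes from -0.07 to -1.43, and the 3 of these 7 that were above 0 turned sign, Rps6ka3 to -0.64, Mapk3 to -1.12 and Braf to -1.01, which are above that median. The nuclear, median and ERCC settings used all aged oocytes, those above 5% included. ERCC scaling was not run without them. It takes equal spike-in per oocyte, which was not checked. In the pools Braf, Rps6ka1 and Rps6ka2 rest on 0 to 146 counts, and chi-square per degree of freedom between replicates over all genes was 18 in siCtrl and 28.5 in siPlat, where counting error alone gives 1.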

Other observations

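Mapk3 was singled out after its values were seen, for its spread among oocytes. Over the 35 young and the 38 aged oocytes at or below 5%, the 5 genes most like it, by the lower of both Spearman correlations, were Dnmt3l, a DNA methylation cofactor gene (0.89 and 0.84), the ribosomal protein gene Rplp1 (0.87 and 0.80), the polyamine oxidase gene Paox (0.79 and 0.89), Pebp1, whose product binds and inhibits Raf (0.79 and 0.91), and Idua, a lysosomal enzyme gene (0.79 and 0.85). The correlations are higher than those of the 5 genes most like Mos. Rps6ka3 ran against Map2k1, with a Spearman correlation of -0.41 in young and -0.55 in the 38 aged oocytes. With the total gene count, Rps6ka3 had a correlation of -0.57 in the young and -0.24 in the 38, and Map2k1 one of 0.60 and 0.20. With the ERCC count, Rps6ka3 had 0.43 and 0.54, and Map2k1 had 0.12 and -0.70. All points in each set are cells of 1 sample, and no test was made.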
